A study of Mus musculus with 9 samples.

Results

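Knockdown of the macroH2A1.1 and of the macroH2A1.2 splice isoform of the histone variant macroH2A1 was compared for 10 genes of the Notch pathway in differentiated C2C12 cells. The genes were chosen by name and role, with earlier results of these data known. They are the receptors Notch1, Notch2 and Notch3, the ligands Dll1, Jag1 and Jag2, the repressor genes Hes1, Hey1 and Heyl, which are classical targets of the pathway, and their relative Hes6. They are 10 of the 52780 genes in the deposited count table. All 10 were among the 19545 genes that passed the filter on low counts.

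C2C12 is an immortal mouse myoblast line whose cells fuse into multinucleated myotubes once the growth serum is replaced by horse serum. mRNA was sequenced from 9 samples collected at day 4 of differentiation, 3 in each of 3 groups. The control group carries the label wild type, while the study's figures name the control si Ctrl. The study also lists a scramble control siRNA. Control samples are recorded with the same siRNA dose and schedule as the knockdowns, although the labels do not state that they received the scramble. In the groups si mH2A1.1 and si mH2A1.2, siRNA against macroH2A1.1 or macroH2A1.2 was delivered at 10 nM around the switch to differentiation medium and again during differentiation. The knockdown is therefore transient and reaches the whole culture, myotubes and unfused cells alike. In such bulk samples, fewer cells of a type and less RNA per cell cannot be told apart.

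Notch signalling passes between touching cells. A Delta or Jagged ligand on the surface of a cell binds a Notch receptor on its neighbour, the receptor is cut by a metalloprotease and then by gamma-secretase, and its intracellular part enters the nucleus and joins RBPJ and Mastermind proteins on target genes. In skeletal muscle the pathway is known for keeping muscle stem cells quiescent and for holding back myogenic differentiation, largely through repressors of the Hes and Hey families.

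Total counts ranged from 36924252 to 42223108 per sample, so that 3 counts corresponded to between 0.0691 and 0.0826 CPM, counts scaled to a fixed total per sample. The 10 genes had between 176 and 18487 counts in a sample. The targeted gene H2afy, whose count holds both isoforms together, was at 59.9 ± 3.18 CPM in the control, 33.3 ± 4.87 CPM in si mH2A1.1 and 45.7 ± 2.20 CPM in si mH2A1.2 (mean ± SD, n = 3). It passed the test in si mH2A1.1 (edgeR adjusted p = 0.0033) but not in si mH2A1.2 (edgeR adjusted p = 0.108), and the sum of the isoforms does not check either isoform on its own. The 10 myotube markers together held between 15370 and 26737 CPM in every sample, while all 5 endothelial markers and 4 of 5 adipocyte markers stayed under 1 CPM in every sample.

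The stretches before the transcription start of 4 of the genes that separated the knockdowns are shown because these genes had a RefSeq promoter window and can be read side by side. Each is the 250 bases before a RefSeq start on GRCm38.p6, written 5′ to 3′ on the minus strand, with the E-box letters CANNTG in capitals. E-boxes are the sites that MyoD and its relatives, and also the Hes and Hey repressors in some variants, are known to bind. The Jag1 stretch lies at chr2:137116521-137116770, that of Dll1 at chr17:15376933-15377182, that of Hes6 at chr1:91414039-91414288 and that of Notch1 at chr2:26503823-26504072.
Jag1: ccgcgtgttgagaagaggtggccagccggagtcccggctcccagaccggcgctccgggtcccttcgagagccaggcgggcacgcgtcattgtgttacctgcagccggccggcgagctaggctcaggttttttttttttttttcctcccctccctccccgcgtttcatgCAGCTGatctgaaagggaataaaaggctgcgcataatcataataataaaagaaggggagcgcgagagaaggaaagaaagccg
Dll1: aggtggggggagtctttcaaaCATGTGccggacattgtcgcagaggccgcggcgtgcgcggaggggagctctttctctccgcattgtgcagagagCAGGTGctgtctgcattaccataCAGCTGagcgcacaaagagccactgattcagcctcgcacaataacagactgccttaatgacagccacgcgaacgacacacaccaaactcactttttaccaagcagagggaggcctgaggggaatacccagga
Hes6: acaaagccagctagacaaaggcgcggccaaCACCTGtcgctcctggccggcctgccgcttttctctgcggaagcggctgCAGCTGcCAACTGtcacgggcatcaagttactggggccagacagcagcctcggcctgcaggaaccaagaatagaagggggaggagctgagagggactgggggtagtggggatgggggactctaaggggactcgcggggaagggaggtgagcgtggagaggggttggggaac
Notch1: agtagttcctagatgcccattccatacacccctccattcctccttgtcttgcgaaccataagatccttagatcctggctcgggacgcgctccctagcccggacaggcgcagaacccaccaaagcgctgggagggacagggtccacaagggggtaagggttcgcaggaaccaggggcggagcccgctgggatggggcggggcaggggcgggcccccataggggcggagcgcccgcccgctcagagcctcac

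The Jag1 stretch held 1 E-box, those of Dll1 and Hes6 held 3 each, and that of Notch1 held none. Dll1 and Hes6 each have a further RefSeq start downstream of the one shown, whose window held 1 E-box and is not printed, so the windows shown for these genes are the ones richer in E-boxes. RefSeq windows of 300 bases, from 250 before to 50 after a start, were given for 7 of the 10 genes, 9 windows in all. None was given for Hes1, Hey1 or Heyl. On either strand, CANNTG was found in 5 of these 9 windows, beside 72.3% of all 32851 mouse windows. The variant CAGCTG, which is contained in CANNTG and was looked at after the sequences had been seen, was in 4 of the 9 windows beside 16.3% of all. These windows belong to Jag1, Dll1 and Hes6 only, with both windows of Hes6 counted. The core letters of the RBPJ site, TGGGAA on either strand, were in 0 of the 9 windows beside 25.6% of all. These matches describe the letters in these windows only.

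In the whole comparison of si mH2A1.1 with the control, 11.1% of the tested genes passed at an adjusted p of 0.05 or less, 6.18% higher and 4.93% lower. For si mH2A1.2 against the control the share was 2.35%, with 1.37% higher and 0.982% lower. Between the knockdowns 22.5% passed, 12.0% higher and 10.5% lower in si mH2A1.1. Against these shares, 2 of the 10 Notch genes (20%) passed in si mH2A1.1 against the control, where Hey1 rose and Jag1 fell. In si mH2A1.2 against the control 2 of 10 passed as well (20%), here with Jag1 up and Jag2 down. Between the knockdowns 6 of 10 (60%) passed, with Notch1, Dll1, Hey1, Heyl and Hes6 higher and Jag1 lower in si mH2A1.1. The median log2 fold change of the 10 genes was 0.14, -0.23 and 0.40 in these comparisons in turn, while the median over all tested genes lay within 0.01 of 0 in each. These calls are from the model without a block, which ignores the pairing by replicate number accepted for the control and si mH2A1.2. In this model Jag1 was the only 1 of the 10 genes to pass in all 3 comparisons, and Notch2, Notch3 and Hes1 passed in none. With the replicate number as a block, Notch1 and Hey1 also passed in si mH2A1.2 against the control (edgeR adjusted p = 0.0071 and 0.0185). Notch1 and Heyl did so in si mH2A1.1 (edgeR adjusted p = 0.0030 and 0.0330). Notch1 and Hey1 then joined Jag1 in passing in all 3 comparisons. Both comparisons with the control share the same control samples.

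**Figure D1:**
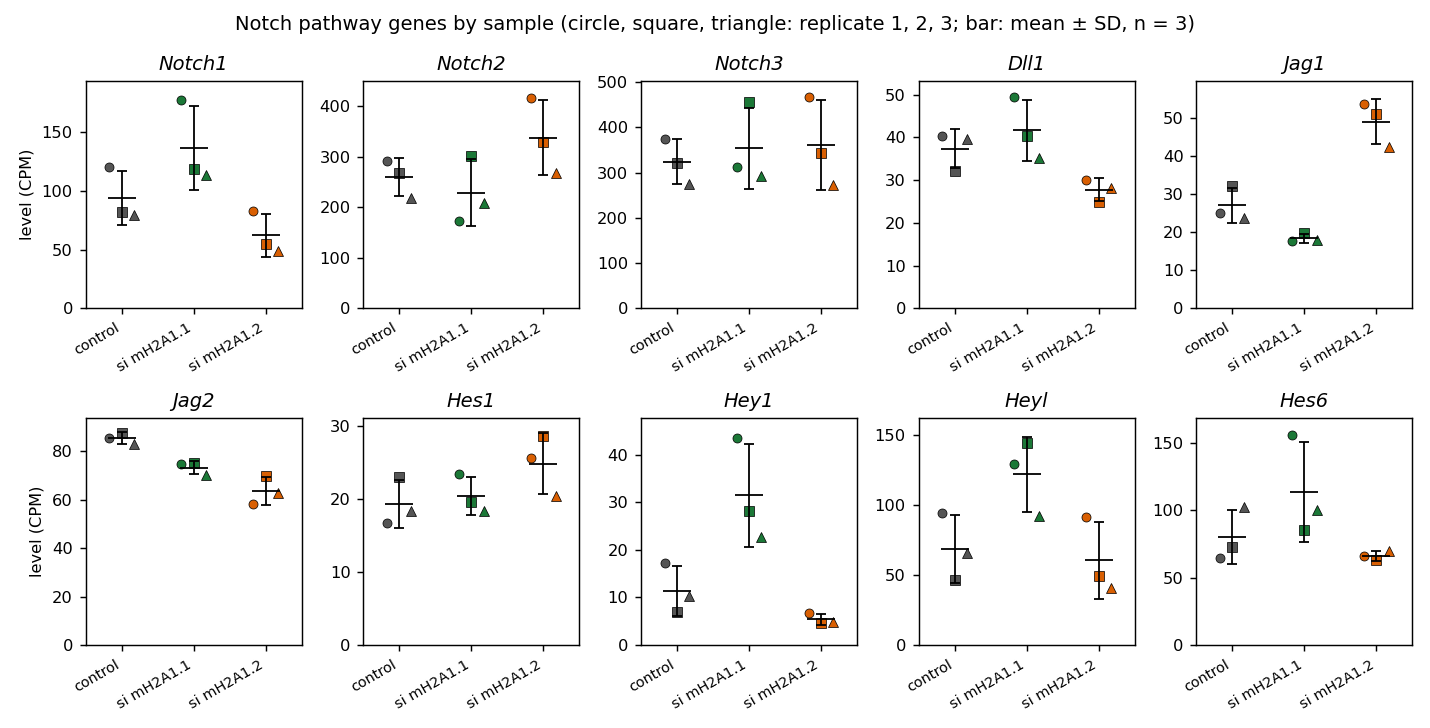
Level of each of the 10 genes in every sample, in CPM (linear axes from 0), for the control, si mH2A1.1 and si mH2A1.2. Circles, squares and triangles are replicates 1, 2 and 3, and bars are the mean ± SD (n = 3). The Jag1 points of the 3 groups lie apart, with si mH2A1.2 on top, and all Hey1 points of si mH2A1.1 lie above all others.

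Among the ligands, Jag1 moved in opposite directions with the isoforms. Jag1 encodes Jagged1, a ligand of the Jagged type (ENSMUSG00000027276, chr2:137081456-137116644, minus strand, GRCm38). It was at 25.1, 32.2 and 23.8 CPM in the control samples, at 17.6, 19.8 and 17.9 CPM in si mH2A1.1 and at 53.7, 51.0 and 42.4 CPM in si mH2A1.2. The 3 groups did not overlap, with all si mH2A1.1 samples below and all si mH2A1.2 samples above the control. Jag1 fell to 68.1% of its control level in si mH2A1.1 (log2 fold change -0.55, SE 0.14, edgeR adjusted p = 0.0312). In si mH2A1.2 it rose 1.81-fold (log2 0.86, SE 0.14, edgeR adjusted p = 0.0172). Between the knockdowns its level in si mH2A1.1 was 37.5% of that in si mH2A1.2 (log2 -1.41, 95% interval -1.72 to -1.11, edgeR adjusted p = 0.0003). This last difference kept its call under all 18 alternatives. The fall in si mH2A1.1 lost its call without control replicate 2 (edgeR adjusted p = 0.110), without si mH2A1.1 replicate 1 (0.111) or 3 (0.102), or without si mH2A1.2 replicate 2 (0.0521). The rise in si mH2A1.2 lost it without control replicate 1 (edgeR adjusted p = 0.0781) or 3 (0.0691), or without si mH2A1.2 replicate 1 (0.0633) or 2 (0.0739).

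Jag2, the other Jagged ligand (ENSMUSG00000002799, chr12:112907819-112929776, minus strand), did not follow Jag1. Its levels were 85.7, 87.8 and 82.9 CPM in the control, 74.6, 75.0 and 70.2 CPM in si mH2A1.1 and 58.2, 69.7 and 62.7 CPM in si mH2A1.2. All samples of either knockdown were below all control samples, and the highest si mH2A1.2 sample lay just under the lowest of si mH2A1.1. Jag2 fell to 74.4% of the control in si mH2A1.2 (log2 -0.43, SE 0.089, edgeR adjusted p = 0.0383), the opposite direction to Jag1 in the same samples. In si mH2A1.1 it was at 85.8% of the control and did not pass (edgeR adjusted p = 0.125). The call in si mH2A1.2 was lost when any of 8 samples was left out, with edgeR adjusted p from 0.0525 without si mH2A1.1 replicate 2 to 0.13 without control replicate 1, and held without si mH2A1.1 replicate 1 (0.0463). It was also lost with no filter on low counts (0.0586) and with only the 2 groups of the contrast in the fit (0.0672).

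Dll1, a Delta ligand that activates Notch receptors on neighbouring cells (ENSMUSG00000014773, chr17:15367354-15376872, minus strand), passed between the knockdowns and in neither comparison with the control in the model without a block. It was at 40.4, 32.1 and 39.6 CPM in the control, at 49.4, 40.3 and 35.2 CPM in si mH2A1.1 and at 30.1, 24.9 and 28.2 CPM in si mH2A1.2. The si mH2A1.2 samples were all below both other groups, which overlapped each other. Its level was 1.5-fold higher in si mH2A1.1 than in si mH2A1.2 (log2 0.59, SE 0.14, edgeR adjusted p = 0.0169). Against the control, si mH2A1.2 was at 74.2% (95% interval of the log2 change -0.75 to -0.11, edgeR adjusted p = 0.168) and si mH2A1.1 at 111% (edgeR adjusted p = 0.500). With the replicate block, si mH2A1.2 against the control passed in DESeq2 (adjusted p = 0.0186) and not in edgeR (adjusted p = 0.0641). The difference between the knockdowns lost its call without si mH2A1.1 replicate 1 (edgeR adjusted p = 0.0639) or si mH2A1.2 replicate 2 (0.0730).

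The make-up of the ligand transcripts therefore differed by group, which is given here as ratios of levels per kilobase of exon within each sample, with no test. Jag1 over Jag2 was 0.377 ± 0.0536 in the control, 0.300 ± 0.0174 in si mH2A1.1 and 0.929 ± 0.155 in si mH2A1.2 (mean ± SD, n = 3). Jag1 over Dll1 was 0.537 ± 0.165, 0.327 ± 0.0606 and 1.29 ± 0.198 in the same order. By this measure Jag1 was at nearly the level of Jag2 and above that of Dll1 in si mH2A1.2, and well below both in the other groups. The length used merges all annotated exons of a gene, and the size of a ratio between genes depends on it.

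**Figure D2:**
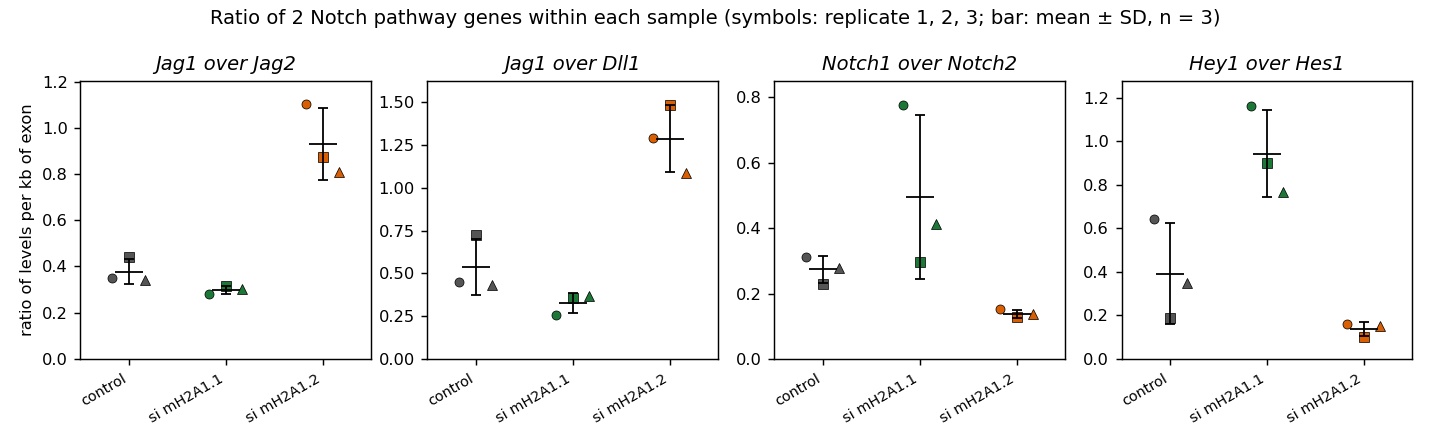
Ratios of 2 genes' levels per kilobase of exon within each sample (linear axes from 0), for Jag1 over Jag2, Jag1 over Dll1, Notch1 over Notch2 and Hey1 over Hes1. Symbols are replicates 1, 2 and 3 and bars are the mean ± SD (n = 3). Jag1 over Jag2 averages 0.929 in si mH2A1.2 beside 0.377 in the control, and Hey1 over Hes1 averages 0.944 in si mH2A1.1 beside 0.137 in si mH2A1.2.

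Of the receptors, Notch1 separated the knockdowns. Notch1 (ENSMUSG00000026923, chr2:26457903-26516663, minus strand) is a receptor of muscle stem cells as well as of many other tissues. Its levels were 120, 81.7 and 79.8 CPM in the control, 178, 118 and 114 CPM in si mH2A1.1 and 83.0, 55.2 and 48.6 CPM in si mH2A1.2. Replicate 1 was the highest sample of every group. All si mH2A1.1 samples were above all si mH2A1.2 samples, and the control overlapped both. Notch1 was 2.19-fold higher in si mH2A1.1 than in si mH2A1.2 (log2 1.13, SE 0.25, edgeR adjusted p = 0.00996), a call kept under all 18 alternatives. Against the control it was 1.46-fold higher in si mH2A1.1 (95% interval of the log2 change 0.0024 to 1.08, edgeR adjusted p = 0.167). This rise passed with the replicate number as a block (edgeR adjusted p = 0.0030). In the check for pairing, same-numbered samples of these groups correlated weakly (0.0841 to 0.0976), yet all above those of different number (-0.0739 to -0.0213). Whether they are paired was not settled. In si mH2A1.2 Notch1 was at 66.3% of the control without passing (log2 -0.59, edgeR adjusted p = 0.266). With the replicate number as a block, which the samples of these groups allow, this value became -0.60 and passed (edgeR adjusted p = 0.0071).

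Notch2 (ENSMUSG00000027878, chr3:98013527-98150361, plus strand) is a further receptor of muscle stem cells and passed in no comparison of the model without a block. It was at 291, 268 and 218 CPM in the control, at 174, 302 and 209 CPM in si mH2A1.1 and at 415, 329 and 268 CPM in si mH2A1.2. The groups overlapped in all comparisons. Its level in si mH2A1.1 was 67.6% of that in si mH2A1.2 (log2 -0.56, 95% interval -1.05 to -0.081, edgeR adjusted p = 0.0887). This difference passed once si mH2A1.1 replicate 2, the highest of its group, was left out (log2 -0.82, edgeR adjusted p = 0.0176). It also passed with the replicate block in DESeq2 (log2 -0.56, adjusted p = 0.0118) and not with the block in edgeR (adjusted p = 0.0606). Notch1 over Notch2, per kilobase of exon, was 0.274 ± 0.0413 in the control, 0.495 ± 0.250 in si mH2A1.1 and 0.139 ± 0.0121 in si mH2A1.2.

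Notch3 (ENSMUSG00000038146, chr17:32120820-32166852, minus strand), a receptor described as restraining myogenesis in muscle stem cells and best known from vascular smooth muscle, had the closest group means. Its levels were 375, 322 and 276 CPM in the control, 313, 457 and 292 CPM in si mH2A1.1 and 468, 342 and 273 CPM in si mH2A1.2. The spread within a group was wider than any difference between the groups. The log2 difference between the knockdowns was -0.03 (95% interval -0.52 to 0.46, edgeR adjusted p = 0.941), an interval that leaves room for changes of moderate size.

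Hey1 had the largest fold change of the 10 genes. Hey1 encodes a basic helix-loop-helix repressor that is induced directly by Notch (ENSMUSG00000040289, chr3:8663359-8667256, minus strand). It was at 17.2, 6.90 and 10.2 CPM in the control, at 43.6, 28.2 and 22.6 CPM in si mH2A1.1 and at 6.63, 4.59 and 4.89 CPM in si mH2A1.2. The 3 groups did not overlap, although the control samples themselves ranged widely. Hey1 rose 2.75-fold in si mH2A1.1 (log2 1.46, SE 0.33, edgeR adjusted p = 0.0229). In si mH2A1.2 it was at 47.0% of the control (log2 -1.09, SE 0.34) and did not pass in the model without a block (edgeR adjusted p = 0.136). It did pass without a block in DESeq2 (adjusted p = 0.0185) and in edgeR with no filter on low counts (adjusted p = 0.0452). With the replicate number as a block the value was -1.03 and passed (edgeR adjusted p = 0.0185). Between the knockdowns Hey1 was 5.86-fold higher in si mH2A1.1 (log2 2.55, 95% interval 1.79 to 3.32, edgeR adjusted p = 0.0011), and this call was kept under all 18 alternatives. The rise in si mH2A1.1 lost its call without control replicate 2 (edgeR adjusted p = 0.0746) or 3 (0.0783), or without si mH2A1.1 replicate 1 (0.0903).

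Heyl, a repressor of the same family and a Notch target in muscle stem cells (ENSMUSG00000032744, chr4:123233556-123249875, plus strand), was higher in si mH2A1.1 than in si mH2A1.2. Its levels were 93.9, 46.2 and 65.4 CPM in the control, 129, 144 and 91.7 CPM in si mH2A1.1 and 91.4, 49.4 and 40.3 CPM in si mH2A1.2. The lowest si mH2A1.1 sample lay barely above the highest si mH2A1.2 sample. The difference was 2.02-fold (log2 1.01, SE 0.33, edgeR adjusted p = 0.0480), close to the threshold. It was lost when control replicate 3, any si mH2A1.1 sample, or si mH2A1.2 replicate 2 or 3 was left out, with edgeR adjusted p from 0.0542 without si mH2A1.1 replicate 3 to 0.160 without si mH2A1.2 replicate 2. Against the control, si mH2A1.1 was 1.78-fold higher without passing in edgeR (adjusted p = 0.118), while it just passed in DESeq2 (adjusted p = 0.04997), and si mH2A1.2 was at 88.1% (edgeR adjusted p = 0.845). With the replicate number as a block, Heyl also passed in si mH2A1.1 against the control in edgeR (adjusted p = 0.0330).

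Hes1, the best known Notch target of the Hes family (ENSMUSG00000022528, chr16:30064384-30067796, plus strand), did not move with Hey1. It was at 16.7, 23.0 and 18.3 CPM in the control, at 23.4, 19.5 and 18.4 CPM in si mH2A1.1 and at 25.6, 28.6 and 20.4 CPM in si mH2A1.2. The samples of all groups overlapped. The log2 difference between the knockdowns was -0.28 (95% interval -0.64 to 0.08, edgeR adjusted p = 0.247), so that a difference as large as that of Hey1 lay outside its interval. Hey1 over Hes1, per kilobase of exon, was 0.393 ± 0.231 in the control, 0.944 ± 0.201 in si mH2A1.1 and 0.137 ± 0.0326 in si mH2A1.2.

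Hes6 (ENSMUSG00000067071, chr1:91411483-91414038, minus strand) is a relative of Hes1 that is not a classical Notch target and is known to oppose Hes1 and to favour myogenic differentiation. Its levels were 64.9, 72.7 and 103 CPM in the control, 156, 85.4 and 100 CPM in si mH2A1.1 and 65.9, 62.9 and 69.7 CPM in si mH2A1.2. All si mH2A1.1 samples were above all si mH2A1.2 samples, with replicate 1 far above the rest. Hes6 was 1.72-fold higher in si mH2A1.1 than in si mH2A1.2 (log2 0.78, SE 0.22, edgeR adjusted p = 0.0301). Against the control its changes were 0.51 and -0.28 on the log2 scale and did not pass (edgeR adjusted p = 0.155 and 0.610). The call between the knockdowns was lost without si mH2A1.1 replicate 1 (log2 0.49, edgeR adjusted p = 0.103) or without si mH2A1.2 replicate 1 (0.0600), 2 (0.0961) or 3 (0.0645).

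**Figure D3:**
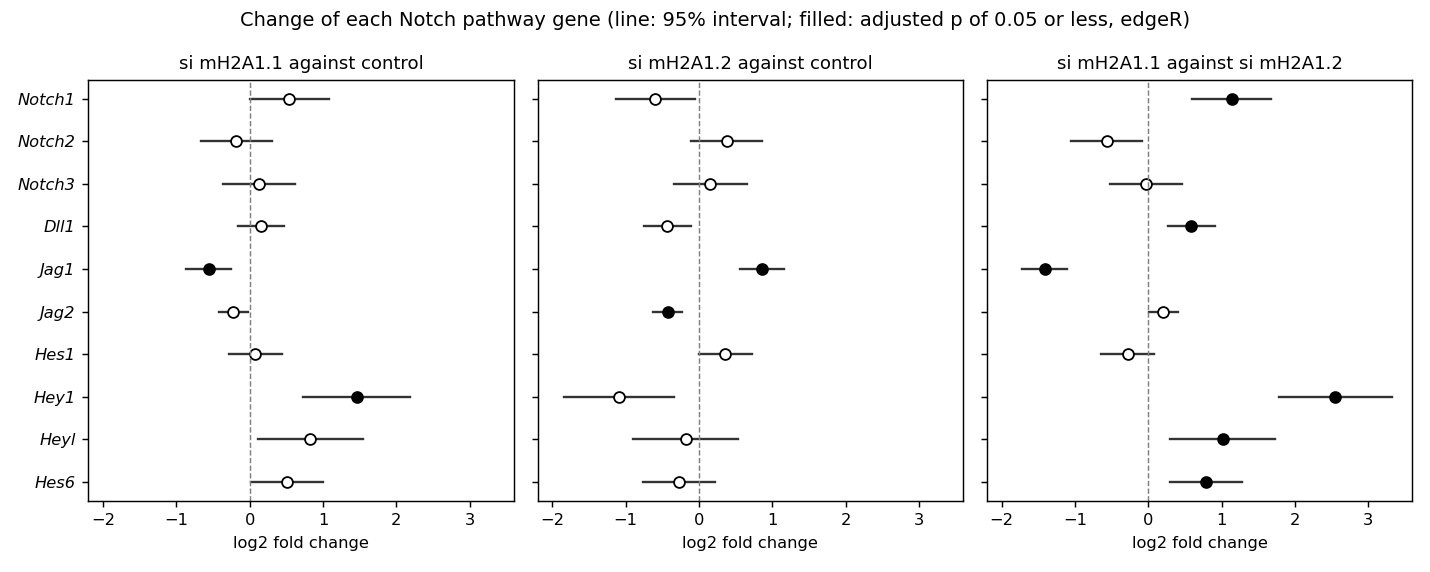
Log2 fold change of each of the 10 genes in the 3 comparisons, with its 95% interval as a line. Filled circles mark an adjusted p of 0.05 or less (edgeR). In si mH2A1.1 against si mH2A1.2, Hey1 lies farthest to the right at 2.55 and Jag1 farthest to the left at -1.41.

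Levels per kilobase of exon (RPKM) put Hes6 and Notch3 at the top in every group. In the control, Hes6 was at 44.3 ± 11.03 RPKM, Notch3 at 40.1 ± 6.13, Notch2 at 24.0 ± 3.50, Heyl at 13.4 ± 4.70, Jag2 at 12.3 ± 0.354, Hes1 at 9.50 ± 1.60, Dll1 at 8.86 ± 1.08, Notch1 at 6.60 ± 1.61, Jag1 at 4.64 ± 0.782 and Hey1 at 3.50 ± 1.61 RPKM (mean ± SD, n = 3). Neighbours in this order whose samples did not overlap were Notch3 above Notch2, Notch2 above Heyl, Jag2 above Hes1 and Notch1 above Jag1. The other neighbours overlapped and were not separated by their spread. In si mH2A1.1 Jag1 was last at 3.16 ± 0.206 RPKM, below every sample of Notch1, the next gene up. In si mH2A1.2 Jag1 stood above Dll1, at 8.42 ± 1.02 beside 6.58 ± 0.629 RPKM with no overlap, and Hey1 was last at 1.65 ± 0.338 RPKM.

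The rest of the pathway was described with a list of 62 further genes by role, of which 56 passed the filter on low counts. In si mH2A1.1 against the control 10 of 56 passed (17.9%, beside 11.1% of all tested genes), 6 higher and 4 lower, with a median log2 fold change of -0.07. In si mH2A1.2 against the control 1 passed (1.79%, beside 2.35%), and the median was 0.04. Between the knockdowns 17 of 56 passed (30.4%, beside 22.5%), 7 higher and 10 lower in si mH2A1.1, with a median of -0.08. With the replicate number as a block, 3 genes passed in si mH2A1.2 against the control in place of 1.

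In the nuclear complex, Rbpj, which encodes the DNA-binding protein that the Notch intracellular domain joins, fell in si mH2A1.1. It was at 133, 177 and 155 CPM in the control, 69.0, 106 and 90.1 CPM in si mH2A1.1 and 116, 170 and 192 CPM in si mH2A1.2. The si mH2A1.1 samples were all below both other groups. The log2 change was -0.81 against the control (SE 0.20, edgeR adjusted p = 0.0329) and -0.85 against si mH2A1.2 (edgeR adjusted p = 0.0159). The Mastermind coactivators Maml1 (log2 -0.45, edgeR adjusted p = 0.0093) and Maml2 (log2 -0.81, edgeR adjusted p = 0.0109) were likewise lower in si mH2A1.1 than in si mH2A1.2. Kat2b, an acetyltransferase recruited to active targets, rose in si mH2A1.1 against the control (log2 0.41, edgeR adjusted p = 0.0165). Of the 8 genes of this complex, 4 passed between the knockdowns, 3 of them lower in si mH2A1.1, beside 22.5% of all tested genes that passed and 10.5% that were lower. In si mH2A1.2 against the control, the log2 change of Maml2 was 0.68, and it passed in edgeR with the replicate block (adjusted p = 0.0307) and not without it (adjusted p = 0.0859).

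Genes that act on ligands and receptors before the nucleus also differed. Mib1 and Mib2 encode ubiquitin ligases that drive uptake of ligand in the sending cell. Mib1 fell in si mH2A1.1 to 73.4% of the control (log2 -0.45, edgeR adjusted p = 0.0237), and both were lower in si mH2A1.1 than in si mH2A1.2 (log2 -0.41 and -0.75, edgeR adjusted p = 0.0171 and 0.0247). The Fringe enzymes, which add sugars to the receptors and shift their preference between Delta and Jagged ligands, split. Lfng was higher in si mH2A1.2, at 12.4, 8.43 and 7.28 CPM beside 5.19, 5.71 and 5.23 CPM in si mH2A1.1 (log2 -0.80 for si mH2A1.1 against si mH2A1.2, edgeR adjusted p = 0.0268). Mfng was higher in si mH2A1.1, although from only 5 to 26 counts in a sample of either knockdown (log2 1.33, edgeR adjusted p = 0.0288). With the replicate block Lfng also passed in si mH2A1.2 against the control (edgeR adjusted p = 0.0788 without the block and 0.0495 with it). Of the cleavage enzymes, Psen2 of the gamma-secretase rose in si mH2A1.1 (log2 0.45, edgeR adjusted p = 0.0432), and it was the only 1 of 10 to pass in any comparison. Adam10, the metalloprotease that makes the first cut, was at 132 ± 25.5 CPM in the control, 167 ± 37.7 in si mH2A1.1 and 136 ± 22.2 in si mH2A1.2 and did not pass (edgeR adjusted p from 0.275 to 0.952). Megf10, a receptor of muscle stem cells listed among noncanonical ligands, was the gene that passed in si mH2A1.2 against the control, from 207 ± 35.0 to 333 ± 25.4 CPM (log2 0.69, edgeR adjusted p = 0.0347).

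Inhibitors, turnover genes and corepressors moved in both directions. Numbl, a relative of the Notch inhibitor Numb, fell in si mH2A1.1 (log2 -0.74, edgeR adjusted p = 0.0209), as did Dtx3 of the Deltex family (log2 -0.55, edgeR adjusted p = 0.0189). The Deltex genes Dtx3l (log2 1.28, edgeR adjusted p = 0.0075) and Dtx4 (log2 0.58, edgeR adjusted p = 0.0178) rose. Dtx3l was at 12.6, 14.7 and 15.2 CPM in the control and at 29.5, 24.9 and 48.6 CPM in si mH2A1.1, highest in the replicate in which the interferon response genes were also highest. Hdac1, a histone deacetylase gene listed with the corepressors, rose in si mH2A1.1 as well (log2 0.78, edgeR adjusted p = 0.0131). Of the Groucho family corepressors, Tle3 was higher and Tle1 and Tle2 were lower in si mH2A1.1 than in si mH2A1.2 (log2 0.37, -0.43 and -0.52, edgeR adjusted p = 0.0415, 0.0498 and 0.0208).

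Other receptors, ligands and targets were scarce. Notch4 was at 0.605 to 0.806 CPM and Dll4 at 0.142 to 0.342 CPM on average in the 3 groups, and neither passed. Nrarp, a feedback inhibitor and direct target, was at 0.361 ± 0.121 CPM in the control, 0.971 ± 0.727 in si mH2A1.1 and 0.304 ± 0.0856 in si mH2A1.2. Without a block it missed the threshold between the knockdowns (log2 1.66, edgeR adjusted p = 0.0524). With the replicate block it passed there (log2 1.52, edgeR adjusted p = 0.0244). Its si mH2A1.1 samples held only 72, 31 and 16 counts. Hes5 had 0 counts in every sample and Hey2 had at most 7, so that a change in either was not detectable at this depth.

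**Figure D4:**
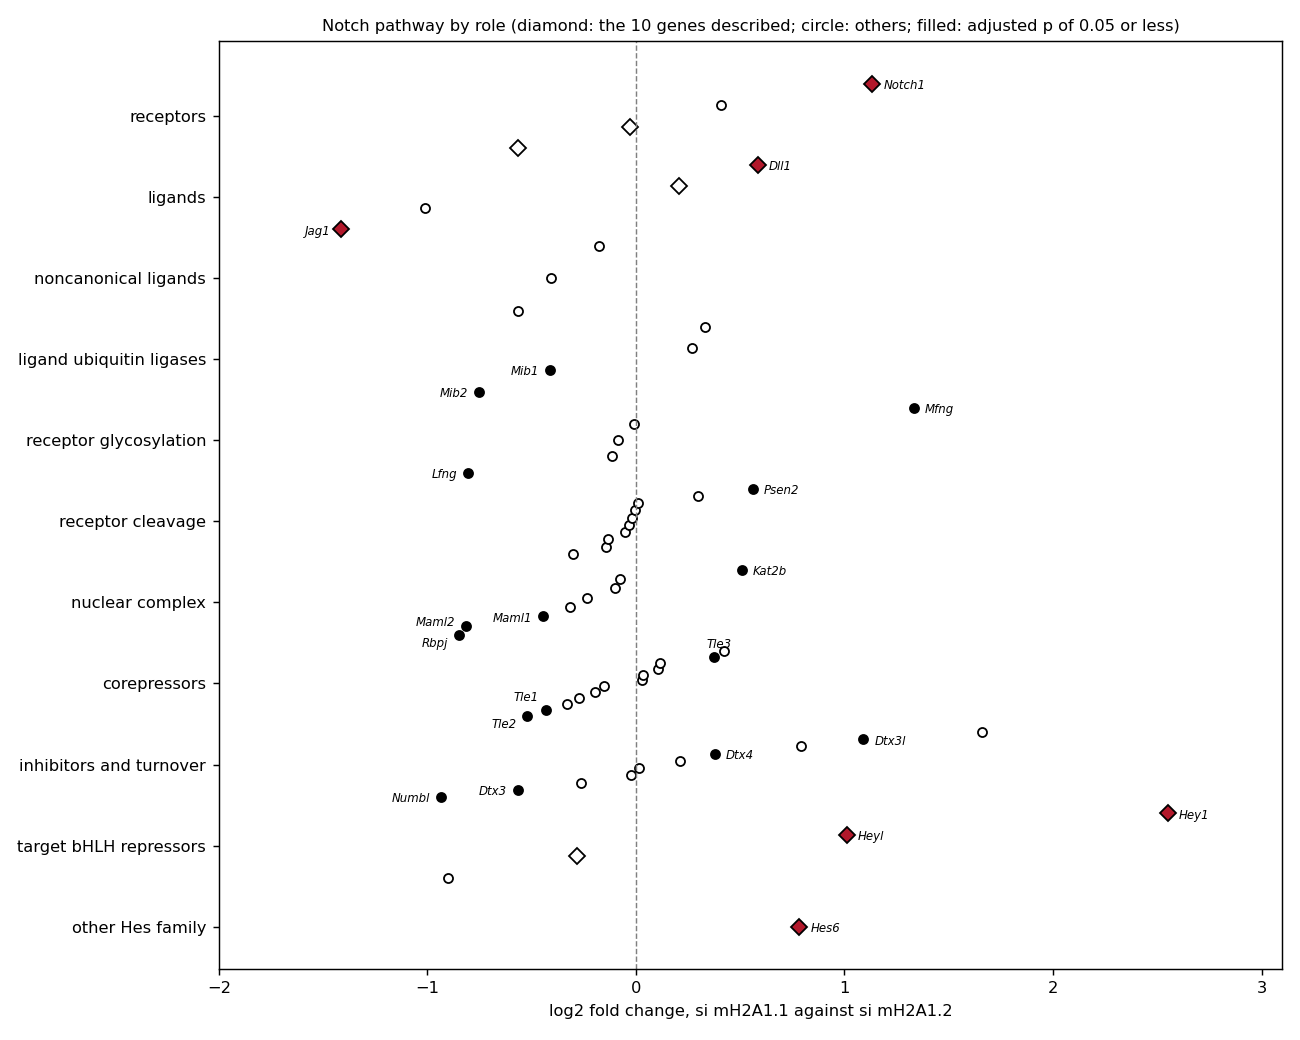
Log2 fold change in si mH2A1.1 against si mH2A1.2 of the tested genes of the Notch pathway, in rows by role. Diamonds are the 10 genes described, circles others of the pathway, and filled symbols have an adjusted p of 0.05 or less (edgeR). The nuclear complex row holds Rbpj, Maml1 and Maml2 to the left and Kat2b to the right of 0, while Hey1, Heyl and Hes6 lie to the right.

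Markers of cell state also differed between the knockdowns. All 6 markers of proliferating cells were higher in si mH2A1.1 than in si mH2A1.2, for example Mki67 (log2 1.16, edgeR adjusted p = 0.0120), and 0 of 6 passed against the control in either knockdown in the model without a block. Their summed level was 280 to 451 CPM in the control, 395 to 817 CPM in si mH2A1.1 and 227 to 326 CPM in si mH2A1.2, highest in replicate 1 of si mH2A1.1, which was also the highest of all samples for Notch1, Dll1, Hey1 and Hes6. Of the markers of reserve or quiescent myogenic cells, Myf5 (log2 1.17, edgeR adjusted p = 0.0020) and Pax7 (log2 1.32, edgeR adjusted p = 0.0081) were higher and Cd34 and Spry1 lower in si mH2A1.1 than in si mH2A1.2. Sums over these 6 markers, of which Calcr had 0 counts throughout, ran from 242 to 286 CPM in si mH2A1.1, 260 to 310 CPM in the control and 357 to 389 CPM in si mH2A1.2. Cd34 and Sdc4 held most of these sums, while Pax7 and Myf5 were lowest on average in si mH2A1.2.

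Of the 10 myotube markers, Myog, Mymx and Actn2 fell in si mH2A1.1, and Actn2 and Tnnt3 fell in si mH2A1.2. With the replicate block Ckm passed as lower in si mH2A1.2 as well (edgeR adjusted p = 0.0786 without the block and 0.0132 with it). Between the knockdowns Actn2, Ckm and Tnnt3 were higher and Myog and Mymx lower in si mH2A1.1. The sum of this list was 17694 to 26737 CPM in the control, 15878 to 20008 CPM in si mH2A1.1 and 15370 to 19729 CPM in si mH2A1.2. All 8 interferon response genes rose in si mH2A1.1, from sums of 31.9 to 39.0 CPM in the control to 140 to 536 CPM, while si mH2A1.2 stayed at 28.2 to 45.4 CPM and 0 of 8 passed there. The macrophage marker Cd68 rose in si mH2A1.1 (log2 1.62, edgeR adjusted p = 0.0056), with the other 4 leukocyte markers under 1 CPM in every sample. The Schwann cell marker Ngfr was higher in si mH2A1.1 than in si mH2A1.2 at levels of 0.787 ± 0.648 and 0.0810 ± 0.0966 CPM, with Sox10 and S100b under 1 CPM throughout. The part of these cell states in the differences of the Notch genes was not tested.

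**Figure D5:**
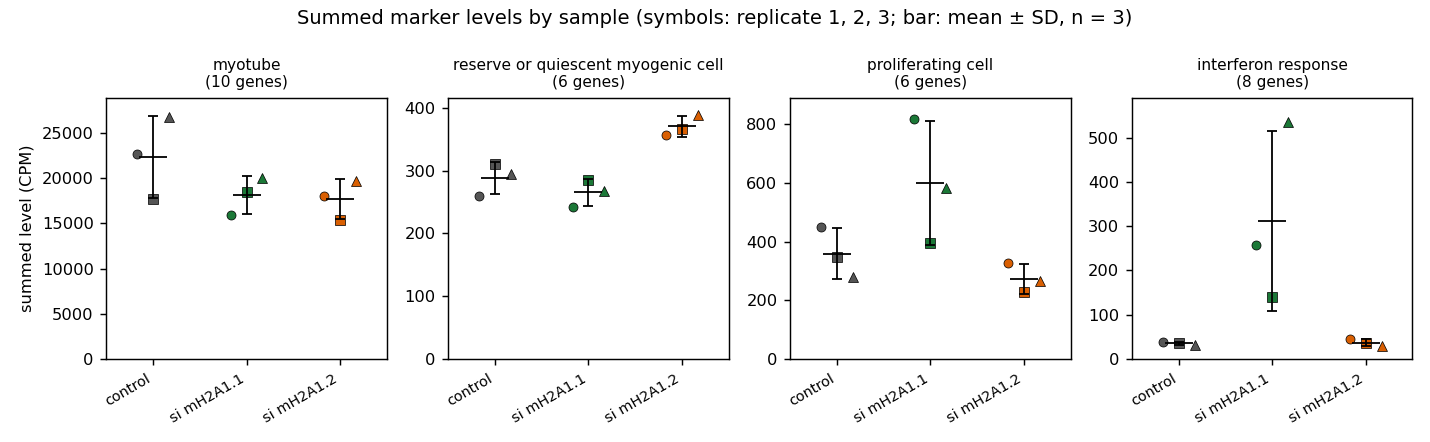
Summed level of 4 marker lists in every sample (CPM, linear axes from 0): 10 myotube, 6 reserve or quiescent myogenic, 6 proliferating cell and 8 interferon response genes. Symbols are replicates 1, 2 and 3 and bars are the mean ± SD (n = 3). Proliferation sums reach 817 CPM and interferon response sums 536 CPM in si mH2A1.1, beside at most 326 and 45.4 CPM in si mH2A1.2.

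The genes most like the 3 Notch genes that separated the knockdowns most were looked up among 14380 other genes of at least 1 CPM on average, by Pearson's r of log2 CPM over the 9 samples. These values are descriptive, since the samples share their groups and libraries. Most like Jag1 were Fmod, which encodes the matrix protein fibromodulin (r = 0.992), Hhat, which encodes the enzyme that palmitoylates Hedgehog (0.991), and Mmp16, a membrane-bound metalloprotease gene (0.990). Fmod was at 3.19 CPM in the control, 0.147 CPM in si mH2A1.1 and 89.5 CPM in si mH2A1.2 on average, a far wider range than that of Jag1. Hey1 was most like Tigar (0.985), Ube2d1 and Smim8 (both 0.983), and Notch1 was most like Hba-a1 (0.993), Mapk11 and Spats2l (both 0.987). Hba-a1 has a near-identical copy, so its own counts are uncertain.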

How the data were processed

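mRNA was measured in 9 samples of differentiated C2C12 cells. The authors sequenced polyA-selected RNA as single reads of 50 bp, quantified it with Salmon on GRCm38 and imported it with tximport, so that the values the authors deposited are each an estimated count of a gene's reads, stored as whole numbers without normalization. A deposited table of normalized values was not used. The annotation release is not given in the sources used here, and GENCODE M21 supplied names, coordinates and merged exon lengths and held 52762 of the 52780 gene identifiers. Whether counting used strand is also not given. Antisense or overlapping annotated transcripts of Notch1, Notch2 and Notch3 had at most 43.1 counts on average.

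Groups and replicate numbers came from the labels. The members and lists were chosen with earlier results of these data known. Genes were tested in R 4.3.3 with the legacy quasi-likelihood form of edgeR 4.0.16 after TMM scaling and filtering by filterByExpr, with Benjamini-Hochberg adjustment over 19545 genes. All 9 samples were in 1 model without a block, 3 contrasts were taken, and an adjusted p of 0.05 or less was called. Alternatives were DESeq2 1.42.0, its size factors in edgeR, limma-voom (limma 3.58.1), the newer edgeR form, no filter, at least 10 counts in every sample, a replicate block, only the groups of a contrast, a stricter call, and leaving out each sample. Scripts were tested on simulated counts. CPM refer to TMM-scaled totals of tested genes, and RPKM divide CPM by merged exon length in kilobases. The order of genes by RPKM depends on that length, whichever transcripts were expressed. P-values set a difference between groups against the spread between samples, which in the main model includes any difference between replicate numbers. Intervals cover no other source of error.

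Named genes were the 10 genes, every further pathway gene that passed in any contrast, 7 pathway genes whatever their result, up to 3 markers per list with those that passed, and the 3 genes most like each of the 3 members with the smallest p. Whether the shared replicate numbers pair the samples was checked by correlating deviations from group means over genes. Same-numbered samples of the control and si mH2A1.2 correlated at 0.196 to 0.331, and those of different number at -0.267 to 0.0358. These numbers were therefore taken to pair them. Between the knockdowns the same-numbered samples correlated at 0.0917 to 0.116 and the others at -0.0961 to -0.0122. Correlations over 0.1 were found in 3 of 3 same-numbered pairs of the control and si mH2A1.2, 2 of 3 between the knockdowns and 0 of 3 of the control and si mH2A1.1. The pairing rests on this check, since the labels state none. The deposited column names of same-numbered samples do carry consecutive numbers across the groups, and the main model ignores any pairing. Promoter sequences came from RefSeq (GRCm38.p6) and were searched in Python 3.11.15 with pandas 2.3.3. Immunoblots, microscopy and chromatin data were not analysed here. Of the listed genes, the values of 2 are not reported here, although list counts include them.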

Additional observations from a re-analysis of the deposited data

How the results depend on the processing

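Of the 30 member results, 10 were called, and 0 of these 10 changed sign under their 18 alternatives. The calls of Notch1, Jag1 and Hey1 between the knockdowns were kept under all of them. Among the 20 results without a call, 5 changed sign when 1 sample was left out, each with values on either side of 0. Their log2 ranges were -0.10 to 0.25 for Notch3 and -0.021 to 0.22 for Hes1 in si mH2A1.1 against the control, -0.079 to 0.32 for Notch3 and -0.61 to 0.11 for Heyl in si mH2A1.2 against the control, and -0.26 to 0.20 for Notch3 between the knockdowns. The numbers of members passing, 2, 2 and 6 for si mH2A1.1 and si mH2A1.2 against the control and between the knockdowns, ranged over 0 to 2, 0 to 2 and 3 to 6 when 1 sample was left out. For the wider list, 10, 1 and 17 became 2 to 11, 0 to 1 and 7 to 16. Under a stricter call (adjusted p under 0.01, log2 change of 0.8 or more either way), 0, 0 and 3 members and 1, 0 and 2 further genes passed. A replicate block gave 4, 4 and 6 members and 16, 3 and 23 further genes in edgeR, and 4, 5 and 7 members in DESeq2, with 5 further genes in si mH2A1.2 against the control. There the members added in edgeR were Notch1 and Hey1, and DESeq2 also added Dll1. DESeq2 without a block gave 3, 3 and 6 members, adding Heyl in si mH2A1.1 and Hey1 in si mH2A1.2. In si mH2A1.1 against the control, the block added Notch1 and Heyl (edgeR adjusted p = 0.0030 and 0.0330) and 5 of the 6 proliferation markers, from Mki67 (0.0081) to Pcna (0.0320), without Cdk1 (0.0528). Same-numbered samples of the control and si mH2A1.1 correlated at 0.0841 to 0.0976, and whether they are paired was not settled. Their samples of different number all correlated negatively, at -0.0739 to -0.0213. In si mH2A1.2 against the control, DESeq2 without the block gave 4 and edgeR without a filter gave 2 further genes, and the fit of the 2 groups alone gave 1 member. Why these counts moved was not tested. Depth did not limit the 10 genes, while Hes5, Hey2, Dll3, Dner, Hes2 and Hes3 were too low to test.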
